A study of Mus musculus with 21 samples.

Results

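The change examined is that between embryonic days E14.5 and E15.5 in the Foxa2-Venus fusion positive (FVF+) cells of the mouse pancreas. Its members are the 3 FVF+ arrays of E14.5 and the 3 FVF+ arrays of E15.5, chosen by the sort and day given in their titles, 6 of the 21 arrays of the series. All 19296 named genes were compared, and every difference is E15.5 minus E14.5.

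The study profiled pancreata on 4 embryonic days by Affymetrix whole-transcript array after sorting cells by FVF, a fusion of the transcription factor FOXA2 with the yellow fluorescent protein Venus made from the Foxa2 gene itself. Each sort and day has 2 or 3 arrays. Both groups share the fusion, the sort for Venus fluorescence and a mixed strain background of C57-Bl6, SV129 and CD1. They differ in the day, E14.5 or E15.5. RNA came from cells sorted from whole pancreas, so each array pools every cell type that carries the fusion. The design text names biological replicates without saying whether embryos, litters or sorts were separate, so each p-value reflects the spread of these arrays, which may be partly technical. In such bulk samples fewer cells of a type and less RNA per cell cannot be told apart. The labels carry array codes of 10, 12 and 14 for E14.5 and 16, 18 and 20 for E15.5 without saying what the codes mean. If they follow an order of handling, that order and the day cannot be told apart.

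At this age the branching pancreatic epithelium separates into acinar, ductal and endocrine lineages. Cells at the branch tips become acinar cells, which fill with zymogen granules holding the inactive precursors of digestive enzymes, and the load of secreted protein is folded in an enlarged endoplasmic reticulum (ER). Cells of the trunk become ducts or switch on Neurog3 and leave the epithelium as endocrine cells, which cluster into islets. FOXA2 is a forkhead factor of endoderm that is present in all of these lineages.

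Values are log2 signals from robust multi-array averaging (RMA), in which a difference of 1 is a doubling. A gene is said to have risen or fallen where its moderated limma test gave a Benjamini-Hochberg adjusted p under 0.05 over all 19296 genes, and errors of differences are standard errors (SE). Each adjusted p given for a gene comes from that test. A call that held under each of 15 alternatives, which include leaving out each FVF+ array of the 2 days in turn, is described as held throughout. Probe sets differ in their scale, so levels are compared only within a gene. Where a list is given with 0 calls in a direction, the count at an unadjusted limma p under 0.05 follows.

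Foxa2 (chromosome 2, 148042877 to 148046969 on GRCm38.p6), the gene that carries the fusion, read 11.26, 11.51 and 11.17 at E14.5 and 10.87, 11.37 and 11.02 at E15.5. These ranges overlapped, and the difference of -0.23 ± 0.18 was not called (adjusted p = 0.354). In the fraction without the fusion (FVF-), Foxa2 read 8.05 to 8.89 at E14.5 and 7.98 to 8.56 at E15.5, below every FVF+ array. The epithelial adhesion gene Cdh1 was at 13.03 to 13.28 over the 6 FVF+ arrays. The mean level of 30 epithelial junction and polarity genes was 11.22 to 11.28 at E14.5 and 11.22 to 11.28 at E15.5, against 8.2 to 9.28 in the FVF- arrays of the same days. The mean level of 31 mesenchymal genes was 8.22 to 8.74 in FVF+ and 11.43 to 11.65 in FVF-. Connective tissue markers thus read lower in FVF+ than in FVF-. These levels do not show whether any such cells were left in the sorted epithelium.

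In all, 4931 genes were called, 25.6% of those tested. Of these 2844 rose (14.7%) and 2087 fell (10.8%), and 170 differed at least 2-fold, 34 higher and 136 lower. The shares of 14.7% and 10.8% are those to set beside each list count below. For 4537 of the 4931 called genes the FVF+ arrays of both days did not overlap, so a lack of overlap adds little to a call. The genes named by rule for the largest rises and falls were chosen among those without overlap. The median difference over all genes was 0.06. The direction of the calls moved with the brightness of the probe set. Among the 4824 dimmest genes 926 rose and 43 fell, with a median difference of 0.15. Among the 4824 brightest 182 rose and 1059 fell, with a median of -0.14. Olfactory receptor genes, a dim family that the pancreas is not known to use, moved in the same direction, with 176 of 1024 risen and 0 fallen (1 at an unadjusted p under 0.05) and a median of 0.15. That family was chosen after its values were seen. After cyclic loess normalization, which evens out such shifts with brightness, 1224 genes were higher and 1497 lower. With arrays centred on the olfactory receptor genes, an alternative added after seeing the data, 699 were higher and 3992 lower, and among the 11407 genes left by a filter on dim signals 738 were higher and 1753 lower. The part of this shift in the rise of any one gene was not tested. Calls that held throughout numbered 467 higher (2.42% of genes) and 771 lower (4%).

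One array stood apart before any gene was considered. On the first principal component of the 11 FVF+ arrays, which held 60.1% of the variance, the E15.5 arrays lay at 38, 39.8 and 38.5. E14.5 replicates 1 and 3 lay at 3.6 and -2.8, but E14.5 replicate 2 at 27.1. Of the 4931 called genes, that array was nearer to the E15.5 arrays than both other E14.5 arrays for 3671, at a median of 26.2% of the way. The second component, with 13.9%, put it with its own day at -21.7, beside -20.6 and -21.8. It also carried more signal of endothelium, with the vascular cadherin gene Cdh5 at 10.66 against 9.19 and 9.52 in its group. Without it 5687 genes were called.

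**Figure D1:**
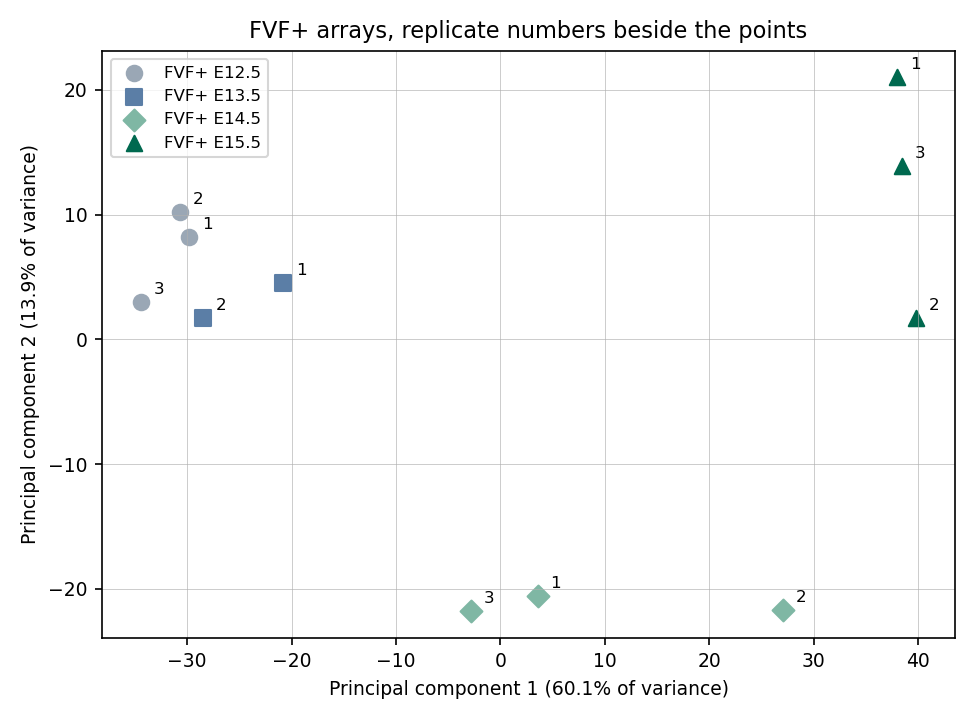
The 11 FVF+ arrays on their first (horizontal, 60.1% of the variance) and second principal components (vertical, 13.9%), in units of the component score over all genes, with the day as colour and shape and the replicate number beside each point. E14.5 replicate 2 sits at 27.1 on the first axis, between the other E14.5 arrays and the E15.5 arrays at 38 to 39.8, and with its own day on the second.

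Digestive enzyme genes of acinar cells gave the most one-sided change among the lists examined. Of 15 measured acinar protease genes 10 rose and 0 fell (0 also at an unadjusted p), with a median difference of 0.76 against 0.06 over all genes, and 8 of the 10 rises held throughout. Of 22 genes of lipases and other acinar secretory products 12 rose and 1 fell, with a median of 0.50, and 8 rises and the fall held throughout. These shares compare with 14.7% of all genes risen and 10.8% fallen. With arrays centred on the olfactory receptor genes 9 of the 15 proteases rose and 1 fell.

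The 4 protease genes with the largest rises are shown with their promoters, since they moved together and the acinar factor PTF1 is known to bind an E-box joined to a TC-box in front of such genes. Each RefSeq window runs from 250 bases before to 50 after the annotated start on GRCm38.p6, read 5′ to 3′ along the gene. Capitals mark the E-box CACCTG and the TC-box TTTCCC, each searched on both strands, so that CAGGTG and GGGAAA are also marked.
Cpb1, chr3:20275684-20275983, minus strand: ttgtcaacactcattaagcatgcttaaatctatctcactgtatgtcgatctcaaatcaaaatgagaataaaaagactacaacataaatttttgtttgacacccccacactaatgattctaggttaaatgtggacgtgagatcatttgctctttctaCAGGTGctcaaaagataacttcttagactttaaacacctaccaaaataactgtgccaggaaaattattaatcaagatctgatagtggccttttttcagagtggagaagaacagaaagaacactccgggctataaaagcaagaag
Cela3b, chr4:137430471-137430770, minus strand: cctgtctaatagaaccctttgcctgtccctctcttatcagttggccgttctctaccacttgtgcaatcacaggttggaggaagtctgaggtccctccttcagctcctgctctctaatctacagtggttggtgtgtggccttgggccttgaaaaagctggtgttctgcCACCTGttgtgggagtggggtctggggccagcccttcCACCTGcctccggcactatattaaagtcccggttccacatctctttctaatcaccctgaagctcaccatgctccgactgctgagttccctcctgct
Cela2a, chr4:141825956-141826255, minus strand: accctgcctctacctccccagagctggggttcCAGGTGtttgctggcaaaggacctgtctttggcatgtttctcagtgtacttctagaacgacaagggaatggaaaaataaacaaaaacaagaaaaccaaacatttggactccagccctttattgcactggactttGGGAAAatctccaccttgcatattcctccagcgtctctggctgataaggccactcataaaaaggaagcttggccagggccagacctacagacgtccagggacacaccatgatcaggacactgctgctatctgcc
Ctrl, chr8:105933813-105934112, minus strand: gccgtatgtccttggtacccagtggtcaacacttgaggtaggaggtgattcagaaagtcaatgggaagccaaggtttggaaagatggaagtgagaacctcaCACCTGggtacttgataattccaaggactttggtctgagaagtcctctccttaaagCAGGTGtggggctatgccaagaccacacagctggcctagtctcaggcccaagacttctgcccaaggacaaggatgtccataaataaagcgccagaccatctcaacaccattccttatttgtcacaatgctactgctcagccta
The letters CACCTG occurred in all 4 windows, 2 times in Cela3b and in Ctrl and 1 time in Cpb1 and in Cela2a. Only the Cela2a window also held TTTCCC, with the starts of both motifs 134 bases apart. Over the protease list 11 of 15 genes had a window, of which 9 held CACCTG and 6 held TTTCCC, and 1 held both with starts at most 30 bases apart. Over all 32851 windows of this length the shares were 20.2%, 25.2% and 1.03%. For the other acinar products, 5 of 16 genes with a window held CACCTG. A gene was counted where any of its windows held the letters. These gene counts and the shares of single windows are therefore unlike measures. A match of letters is a description of the sequence and was not tied to any binding measurement.

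Cpb1 encodes a carboxypeptidase that trims basic residues from dietary peptides. It read 9.84, 10.62 and 10.04 at E14.5 and 12.33, 12.35 and 12.40 at E15.5. The E15.5 arrays lay close together and well above every E14.5 array, with a difference of 2.19 ± 0.32 (4.57-fold, adjusted p = 0.00044). Cela3b, a chymotrypsin-like elastase gene, read 10.20, 11.18 and 10.07 and then 12.99, 12.18 and 12.78, a rise of 2.17 ± 0.29 (adjusted p = 0.000279). Cela2a, the gene of a second elastase, read 10.85, 11.58 and 10.80 and then 13.08, 12.64 and 12.94, a rise of 1.81 ± 0.25 (adjusted p = 0.000302). In both elastase genes the groups did not overlap, E14.5 replicate 2 was the highest of its day and E15.5 replicate 2 the lowest of its day. Ctrl, which encodes a chymotrypsin-like protease, had tighter groups of 8.67 to 8.78 and 9.67 to 9.81 and rose by 1.01 ± 0.10 (adjusted p = 4.44e-05).

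Rnase1, the gene of pancreatic ribonuclease, had the largest rise of any gene in the comparison by the naming rule used. It read 8.64, 10.55 and 9.99 at E14.5 and 12.69, 12.09 and 12.51 at E15.5. The E14.5 arrays spread widely, and the groups did not overlap, which the naming rule required. The difference was 2.70 ± 0.36 (6.51-fold, adjusted p = 0.000298). Zg16, which encodes a lectin of the zymogen granule membrane, rose by 1.90 ± 0.30 from 6.66, 8.18 and 6.79 to 9.45, 8.71 and 9.16. The water channel genes Aqp8 and Aqp12 rose by 1.66 ± 0.28 and 1.59 ± 0.17, and the trefoil peptide gene Tff2 by 1.41 ± 0.16. The arrays of both days were apart for each of these, as the naming rule required for Zg16, Aqp8 and Aqp12. The calls of Rnase1, Zg16, Aqp8, Aqp12 and Tff2 held throughout.

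Other enzyme genes had smaller differences or were not called. The trypsinogen genes Prss2, Try4 and Try5 rose by 0.80 ± 0.19, 0.75 and 0.69, and the members of this family are near-identical copies whose probe sets may share signal. The lipase gene Pnliprp2 rose by 1.02 ± 0.17. Ctrb1 and Cpa1, which encode chymotrypsinogen B and carboxypeptidase A1, read 14.80 to 14.96 and 14.84 to 14.94 over the 6 arrays and differed by 0.05 ± 0.39 (adjusted p = 0.934) and -0.02 ± 0.23 (adjusted p = 0.956). Clps, the gene of the lipase cofactor colipase, read 14.78 to 14.95 and differed by -0.02 ± 0.28 (adjusted p = 0.957). The errors of these 3 genes come from the spread within all groups and exceed the range of the 6 arrays. These 3 lay near the upper end of the deposited values, and whether signals there could still show a difference was not tested. Pla2g1b, which encodes the secreted pancreatic phospholipase A2, was the member that fell, from 9.18, 9.58 and 9.33 to 8.80, 8.77 and 9.09 (-0.48 ± 0.12, adjusted p = 0.00798). Its ranges came close to each other without crossing, and the call held throughout.

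**Figure D2:**
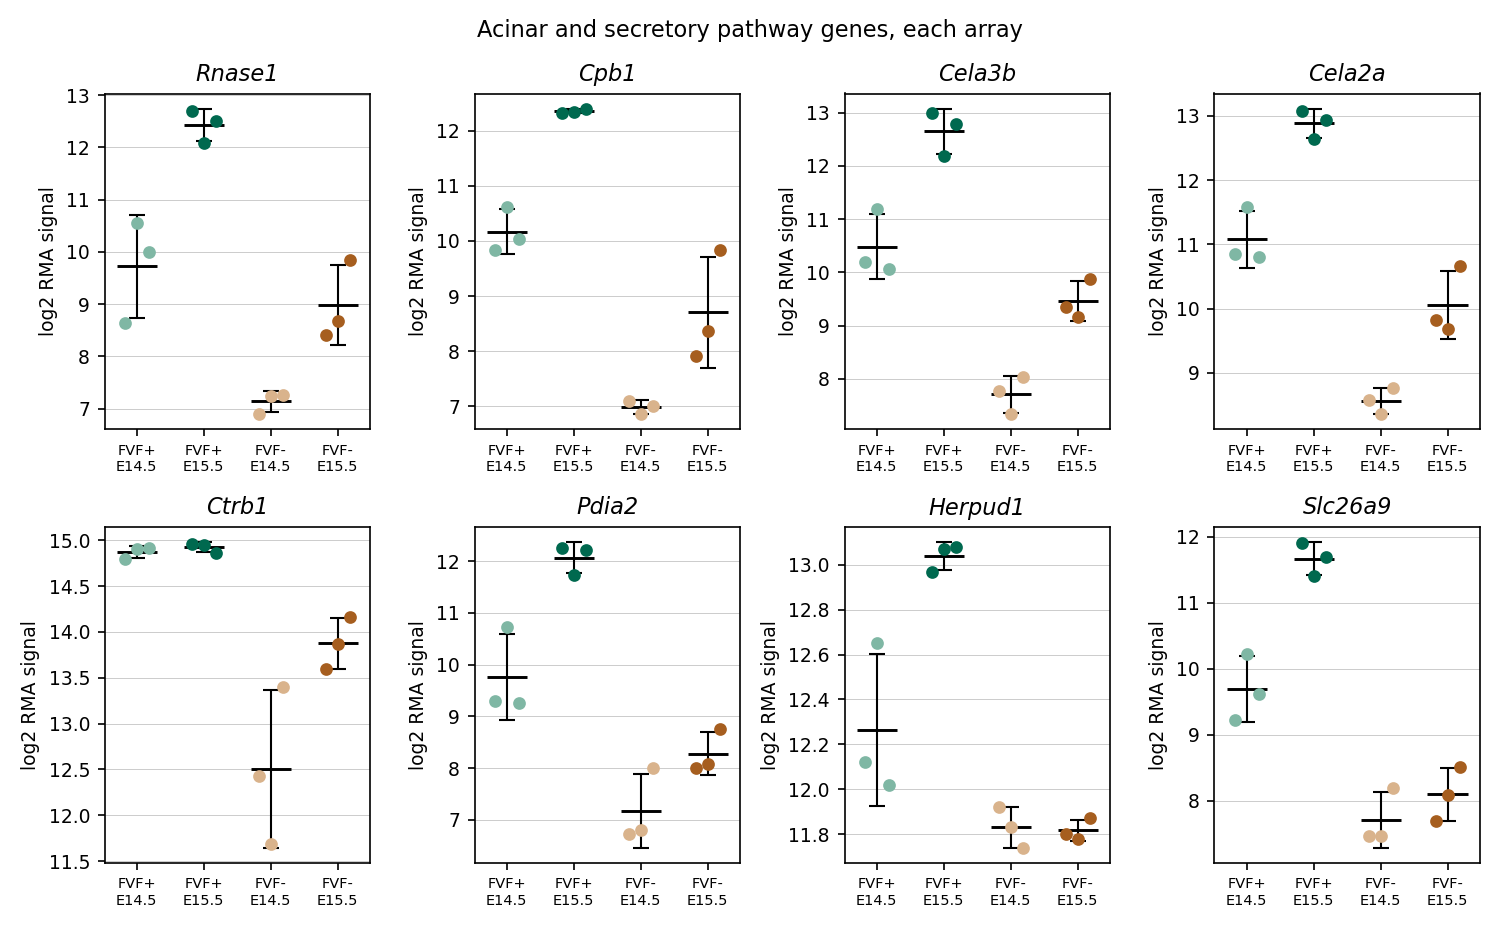
Log2 RMA signal (vertical axis, a separate scale for each gene) of 8 acinar and secretory pathway genes in each array of the FVF+ and FVF- groups at E14.5 and E15.5, with points for arrays, horizontal bars for group means and error bars for the standard deviation of 3 arrays. In 7 of the 8 genes every FVF+ E15.5 array is above every FVF+ E14.5 array, while Ctrb1 stays between 14.80 and 14.96.

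No transcription factor gene of the acinar lineage was called as risen. Of 10 measured, 0 rose (0 also at an unadjusted p) and 1 fell, with a median of 0.06. Ptf1a, the DNA-binding subunit of the acinar factor PTF1, read 11.51, 11.36 and 11.23 and then 11.05, 11.54 and 11.47, with a difference of -0.01 ± 0.29 (adjusted p = 0.977). Its groups overlapped. Rbpjl, the subunit that PTF1 uses in mature acinar cells, differed by 0.26 ± 0.52 (adjusted p = 0.728) and Xbp1, a factor of the unfolded protein response and of secretory cells, by 0.05 ± 0.12 (adjusted p = 0.784). Tcf3, which encodes the E-protein partner of PTF1A, was the member that fell (-0.35 ± 0.11, adjusted p = 0.0273). That call was lost under several alternatives, among them without E14.5 replicate 2 (adjusted p = 0.0684) and without E15.5 replicate 3 (adjusted p = 0.14).

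The step of the day before is given for scale. The log2 difference of E14.5 minus E13.5, which rests on the same E14.5 arrays and on 2 arrays of E13.5, was 3.22 ± 0.35 for Cpb1, 2.45 ± 0.32 for Cela3b and 2.53 ± 0.41 for Rnase1. Side by side, the E15.5 minus E14.5 differences were 2.19 ± 0.32, 2.17 ± 0.29 and 2.70 ± 0.36. Since both steps share the E14.5 arrays, an array there moves them in opposite directions, and no test was made between them. For Slc26a9, an anion transporter gene, the earlier step was 0.86 ± 0.28 and the later one 1.98 ± 0.25.

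Some genes of the ER and its stress response rose. Of 49 measured, 18 rose and 2 fell, with a median of 0.19, and 9 rises held throughout. Leaving out 1 array at a time gave 11 (without E14.5 replicate 3) to 20 rises. Pdia2, a protein disulfide isomerase of the pancreas that helps enzymes fold, led them. It read 9.30, 10.73 and 9.25 at E14.5 and 12.26, 11.73 and 12.22 at E15.5, without overlap, a rise of 2.31 ± 0.34 (4.96-fold, adjusted p = 0.000513). Herpud1, a component of ER-associated degradation, read 12.12, 12.65 and 12.02 and then 12.97, 13.07 and 13.08, a rise of 0.78 ± 0.15 (adjusted p = 0.00241). Further degradation genes rose, the ubiquitin ligase gene Syvn1 by 0.59 ± 0.09 and its partner Sel1l by 0.44 ± 0.09. Eif2ak3, the gene of the stress-sensing kinase PERK, rose by 0.61 ± 0.09 from 9.82 to 9.93 at E14.5 to 10.42 to 10.57 at E15.5. All of these held throughout.

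Other ER genes were not called or fell. Hspa5, the gene of the major ER chaperone BiP, read 13.39 to 13.68 and then 13.62 to 13.85, with a difference of 0.17 ± 0.10 (adjusted p = 0.213). The translocon-associated gene Ssr2 differed by 0.03 ± 0.08 (adjusted p = 0.835). The members that fell were Dnajb9 (-0.63 ± 0.17), an ER co-chaperone gene, and Srp9 (-0.50 ± 0.12), which encodes a subunit of the signal recognition particle that brings nascent chains to the ER. The call of Dnajb9 was lost without E14.5 replicate 3 (adjusted p = 0.0633) and that of Srp9 when a gene's probe sets were averaged (adjusted p = 0.14). With arrays centred on the olfactory receptor genes the list gave 10 rises and 6 falls with a median of 0.04.

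**Figure D3:**
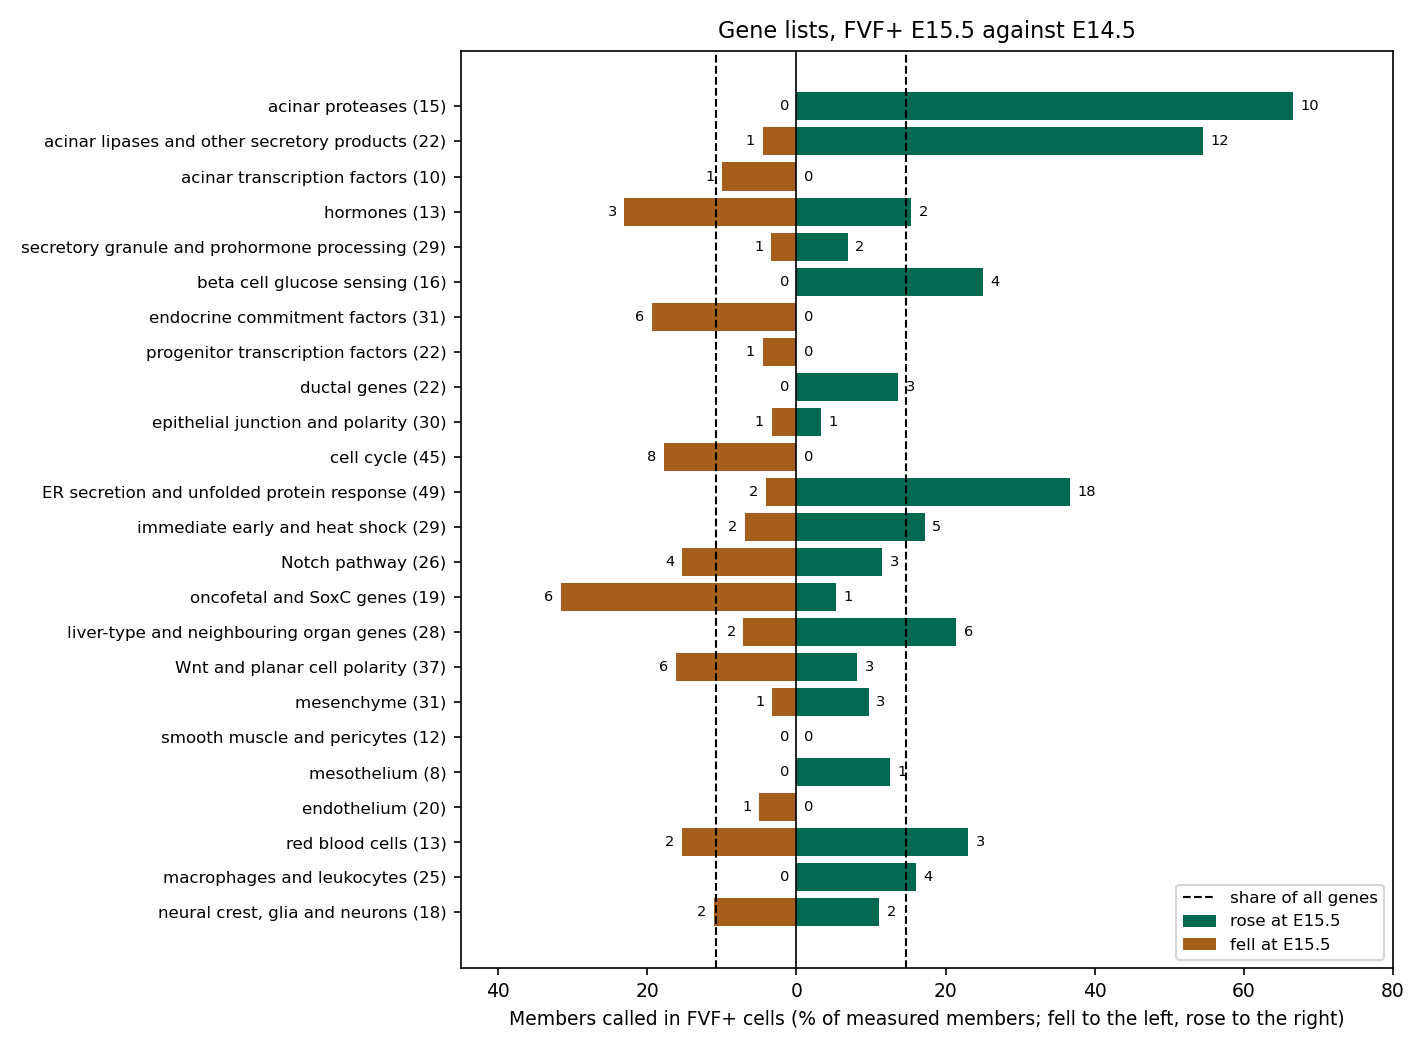
Share of the measured members of 24 gene lists (vertical axis, number measured in brackets) that rose (green, to the right) or fell (brown, to the left) between E14.5 and E15.5 in FVF+ cells, in percent, with counts at the bar ends and dashed lines at the shares of all genes, 14.7% risen and 10.8% fallen. The bars for acinar proteases (10 of 15), other acinar products (12 of 22) and the ER (18 of 49) pass the line for rises by the widest margins. Several bars pass the line for falls, that for oncofetal and SoxC genes (6 of 19) by the widest margin. Others are those for hormones (3 of 13), endocrine commitment factors (6 of 31) and cell cycle genes (8 of 45). The lines are shares of all genes, and falls were more frequent among bright genes (1059 of the 4824 brightest).

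Endocrine genes changed in both directions. Of 13 measured hormone genes 2 rose and 3 fell, with a median of 0.12, against 14.7% of all genes risen and 10.8% fallen. Sst, the somatostatin gene of delta cells, read 11.71, 12.94 and 11.82 at E14.5 and 13.86, 13.12 and 13.43 at E15.5. The groups did not overlap, though the highest E14.5 array, replicate 2, came close to the lowest E15.5 array, and the rise was 1.31 ± 0.24 (adjusted p = 0.00183). Gast, the gastrin gene, which is active in the fetal islet, read 11.75, 12.08 and 11.73 and then 9.92, 11.16 and 10.50, a fall of -1.33 ± 0.27 (adjusted p = 0.00285). Cck, which encodes the related peptide cholecystokinin, fell by -1.29 ± 0.25 from 11.39 to 11.53 down to 9.63 to 10.62. Tac1, the substance P precursor gene, fell by -1.05 ± 0.15 from 6.35 to 6.98 down to 5.51 to 5.70. These 4 calls held throughout.

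Ins2, Gcg and Iapp were not called. Ins2, one of the insulin genes, read 12.16, 12.87 and 12.27 and then 12.16, 12.76 and 12.15, with a difference of -0.08 ± 0.23 (adjusted p = 0.827). Replicate 2 was the highest on both days. Gcg, the glucagon gene, read 13.90 to 14.34 and then 14.12 to 14.13 and differed by 0.06 ± 0.57 (adjusted p = 0.946), and the amylin gene Iapp by 0.41 ± 0.35 (adjusted p = 0.391). In the preceding step Ins2 had differed by 3.00 ± 0.26, Sst by 3.29 ± 0.27 and Gast by 1.69 ± 0.30.

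Of 29 genes of secretory granules and prohormone processing 2 rose and 1 fell, with a median of -0.01. Slc30a8, which encodes the zinc transporter of insulin granules, read 9.18, 9.58 and 9.32 and then 10.90, 10.19 and 10.85, without overlap, and rose by 1.29 ± 0.17 (adjusted p = 0.000273). Sytl4, whose product granuphilin docks granules at the membrane, rose by 0.67 ± 0.11 (adjusted p = 0.00112). Both held throughout, and both also belong to the list of beta cell glucose sensing, in which 4 of 16 rose and 0 fell (0 also at an unadjusted p). These counts depended on single arrays. Without E14.5 replicate 2, 8 of 29 granule genes and 7 of 16 glucose sensing genes rose, and without E15.5 replicate 2, 4 granule genes did. The glucose sensing count was 2 without E14.5 replicate 1 or 3, without E15.5 replicate 1 or 3, and after cyclic loess normalization. Chgb, the gene of the granule protein chromogranin B, had no array below 12.93 at E14.5 and read 12.42, 12.27 and 12.39 at E15.5. Its groups lay apart, but the fit over all arrays did not call it (-0.61 ± 0.35, adjusted p = 0.199), whereas the fit on the 6 arrays alone did (adjusted p = 0.0136).

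Of 31 endocrine commitment factors 0 rose (1 at an unadjusted p) and 6 fell, with a median of -0.21, and 3 falls held throughout. Over all genes 14.7% rose and 10.8% fell. The list had mean levels of 10.7 to 11.1 in the 6 FVF+ arrays and 8.80 to 9.28 in FVF-. Of the 4824 brightest genes over all groups 1059 fell, and of the 4824 next brightest 705 fell. The share of falls in the list lay between those. Neurod1, a basic helix-loop-helix factor that acts after Neurog3, read 11.73 to 12.10 at E14.5 and 10.27, 10.44 and 11.07 at E15.5. The groups were separate, and the fall was -1.35 ± 0.26 (adjusted p = 0.00241). Pou3f4, a POU-domain factor of alpha cells, read 12.01, 12.19 and 11.86 and then 10.21, 11.50 and 10.43, a fall of -1.31 ± 0.30 (adjusted p = 0.00617). Hhex, a homeobox factor of early foregut endoderm and later of delta cells, fell by -0.82 ± 0.17 from 9.89 to 10.08 down to 8.94 to 9.40 (adjusted p = 0.00375).

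Neurog3, which starts endocrine differentiation, read 13.34, 13.61 and 13.28 and then 12.95, 13.02 and 13.01. All 3 later arrays were lower, but the difference of -0.42 ± 0.35 was not called (adjusted p = 0.387). The fit on the 6 arrays alone called it (adjusted p = 0.0402). The pancreatic factors Pdx1 and Pax4 differed by -0.53 ± 0.26 (adjusted p = 0.138) and -0.60 ± 0.33 (adjusted p = 0.185). Leaving out 1 array at a time gave 3 (without E14.5 replicate 3 or E15.5 replicate 3) to 7 falls in the list, and with arrays centred on the olfactory receptor genes 13 of the 31 fell.

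**Figure D4:**
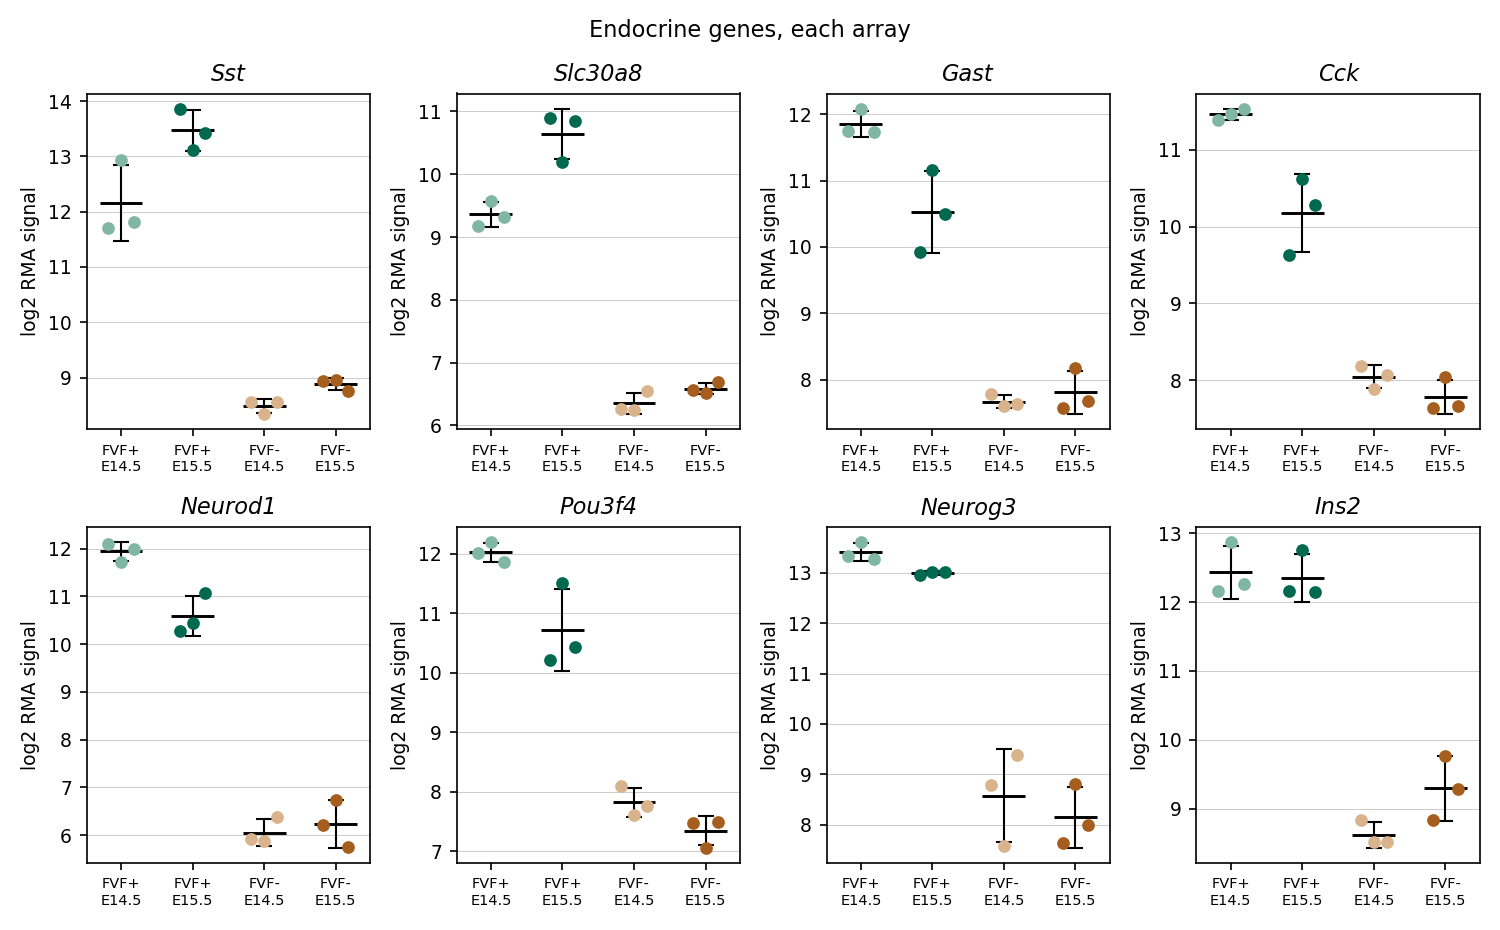
Log2 RMA signal (vertical axis, a separate scale for each gene) of 8 endocrine genes in each array of the FVF+ and FVF- groups at E14.5 and E15.5, with points for arrays, horizontal bars for group means and error bars for the standard deviation of 3 arrays. Sst and Slc30a8 are higher at E15.5 in FVF+, Gast, Cck, Neurod1 and Pou3f4 lower, Neurog3 lies between 12.95 and 13.61, and Ins2 overlaps.

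Few progenitor, ductal and junction genes were called in the fit over all arrays. Of 22 progenitor transcription factors 0 rose (1 at an unadjusted p) and 1 fell, with a median of -0.19. Gata6, a zinc finger factor of pancreatic progenitors, fell by -0.37 ± 0.09 from 12.38 to 12.53 down to 11.92 to 12.20 (adjusted p = 0.00861), a call lost after quantile (adjusted p = 0.0907) and cyclic loess normalization (adjusted p = 0.117). Sox9, which maintains progenitors and ducts, read 12.82, 12.60 and 12.85 and then 12.44, 12.07 and 12.36. Its arrays did not overlap, and it was not called (-0.47 ± 0.24, adjusted p = 0.153). The fit on the compared arrays alone called it (adjusted p = 0.0433). That fit gave 5 falls among the 22 progenitor factors, as did centring on olfactory receptor genes. Of 22 ductal genes 3 rose, close to the 14.7% of all genes, and 0 fell (1 at an unadjusted p). Tff1, a trefoil peptide gene, rose by 0.50 ± 0.10 from 7.82 to 8.03 up to 8.32 to 8.57 and held throughout, while the keratin gene Krt8 differed by -0.00 ± 0.17. Of 30 junction and polarity genes 1 rose and 1 fell.

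Several genes that are high in fetal tissue fell. Of 19 oncofetal and SoxC genes, a list of fetal growth and differentiation regulators, 6 fell and 1 rose, with a median of -0.32, and 5 falls held throughout. Sox11, a SoxC factor of immature cells, read 9.17, 8.54 and 9.09 and then 7.71, 7.55 and 8.21, a fall of -1.11 ± 0.25 (adjusted p = 0.00513). Igf2bp1 and Igf2bp3, whose products bind fetal mRNAs including that of Igf2, fell by -0.67 ± 0.12 and -0.58 ± 0.13. Igf2, the fetal growth factor gene, fell by -0.43 ± 0.10 from 13.69 to 13.97 down to 13.32 to 13.61. In each of these genes the arrays of both days were apart. Cdkn1c, the gene of an imprinted cell cycle inhibitor of the same list, fell by -0.63 ± 0.13 from 11.21 to 11.33 down to 10.56 to 10.70. The member that rose was Lin28a (0.32 ± 0.09), which encodes an inhibitor of let-7 maturation, and its call was lost after cyclic loess normalization, when 0 members rose.

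Of 45 cell cycle genes 0 rose (0 also at an unadjusted p) and 8 fell, with a median of -0.18, and 3 falls held throughout. Over all genes 10.8% fell. This list is bright, at mean levels of 11.04 to 11.47 in the 6 FVF+ arrays, and of the 4824 brightest genes 1059 fell, a larger share than in the list. Bub1, a kinase gene of the spindle checkpoint, read 11.40, 10.22 and 11.41 and then 9.68, 9.89 and 9.94, a fall of -1.17 ± 0.26 (adjusted p = 0.0049). E14.5 replicate 2 lay nearer to the E15.5 arrays than to the other E14.5 arrays. Kif11, the mitotic kinesin gene, read 11.58, 10.49 and 11.60 and then 10.30, 10.31 and 10.57, so that E14.5 replicate 2 overlapped the later day, and fell by -0.83 ± 0.24. Its call was lost without E14.5 replicate 1 (adjusted p = 0.095), without E14.5 replicate 3 (adjusted p = 0.106) or without E15.5 replicate 1 (adjusted p = 0.0615). The list gave 13 falls without E14.5 replicate 2, 4 without E14.5 replicate 1, and 3 without E14.5 replicate 3 or without E15.5 replicate 1. Mki67, the gene of the proliferation marker Ki-67, differed by -0.02. After cyclic loess normalization 3 members fell and the median was -0.03.

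Of 37 Wnt and planar cell polarity genes 3 rose and 6 fell. The falls that held throughout were of receptors and regulators. Fzd7 and Fzd2, which encode Wnt receptors, fell by -0.76 ± 0.17 and -0.67. Vangl2, a core planar polarity gene, fell by -0.72 ± 0.15 from 10.72 to 10.79 down to 9.87 to 10.25, and Dact1, a Dishevelled-binding regulator gene, by -0.80 ± 0.12 from 9.35 to 9.61 down to 8.59 to 8.74. Wnt6, a ligand gene, rose by 0.55 ± 0.11 at dim levels of 7.68 to 7.90 and then 8.16 to 8.47. Of 26 Notch pathway genes 3 rose and 4 fell, close to the shares of all genes. The target gene Hes5 rose by 0.56 ± 0.11 and the target gene Hey1 fell by -0.81 ± 0.17, both held throughout, and the receptor gene Notch1 differed by 0.23 ± 0.12 (adjusted p = 0.167).

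Some immediate early genes were highest in 1 array of the later day. Of 29 measured, 5 rose and 2 fell, with a median of 0.48, near the shares of all genes (14.7% risen and 10.8% fallen). Fos, a transcription factor gene that responds within minutes to many stimuli, read 9.07, 9.16 and 8.88 at E14.5 and 8.43, 9.97 and 11.40 at E15.5, and Atf3, a stress factor gene, 7.98, 8.29 and 7.98 and then 8.35, 8.56 and 11.52. E15.5 replicate 3 was the highest for both. Neither was called (Fos 0.90 ± 0.61, adjusted p = 0.283; Atf3 1.39 ± 0.51, adjusted p = 0.0547). Without that array the list median was 0.17, against 0.43 to 0.64 without any one of the other 5 arrays. The count of rises depended on several arrays, with 1 rise without E14.5 replicate 1, E14.5 replicate 3 or E15.5 replicate 3 and 9 without E15.5 replicate 1. Dnaja1, a cytosolic co-chaperone gene, fell by -0.82 ± 0.12 from 11.78 to 12.04 down to 10.96 to 11.25 and held throughout, at -0.46 with its probe sets averaged.

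Among genes of neighbouring organs, protease inhibitor genes that are active in liver fell, and so did Crp. Serpina1c, an alpha-1-antitrypsin gene, read 12.72, 11.69 and 12.21 and then 9.49, 10.69 and 9.85, a fall of -2.20 ± 0.50 (adjusted p = 0.00542). Serpina1d, a near-identical copy whose probes may share signal, fell by -1.38 ± 0.29. Crp, the C-reactive protein gene of hepatocytes, had the tightest groups of the large falls, 9.53, 9.57 and 9.75 and then 7.79, 8.16 and 7.79 (-1.70 ± 0.13, adjusted p = 2.95e-06). Over the list of 28 genes, which does not hold Crp, 6 rose and the 2 inhibitor genes fell. The rises numbered 1 without E14.5 replicate 1, 2 without E14.5 replicate 3, E15.5 replicate 1 or E15.5 replicate 2, 3 without E15.5 replicate 3, and 1 after cyclic loess normalization or centring on olfactory receptor genes. Cdx1, an intestinal homeobox gene, rose by 0.68 ± 0.09 and held throughout, while the rises of Nkx2-5 and Cyp2c70 did not. Ttr, the transthyretin gene, differed by -0.35 ± 0.43 (adjusted p = 0.556) and Afp, the alpha-fetoprotein gene, by -0.10, and neither was called.

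The other large falls were of genes of varied function. Ly96, which encodes the MD-2 partner of the endotoxin receptor, read 10.58, 9.73 and 10.59 and then 6.58, 8.53 and 7.37, without overlap, a fall of -2.81 ± 0.46 (7-fold, adjusted p = 0.00104). Stxbp4, a syntaxin-binding protein gene, fell by -2.61 ± 0.37 and Scoc, a small coiled-coil gene of Golgi and autophagy, by -2.37 ± 0.38. Trim13, an ER-anchored ubiquitin ligase gene, fell by -2.02 ± 0.26, Zcrb1, a spliceosome protein gene, by -1.86 ± 0.24 and the deubiquitinase gene Mindy2 by -1.80 ± 0.24. These values come from the brightest probe set of each gene, and with a gene's probe sets averaged the differences were -1.64 for Stxbp4, -1.10 for Scoc and -1.22 for Mindy2. In Stxbp4, Scoc, Trim13 and Mindy2 E14.5 replicate 2 was the lowest of its day. The zinc finger genes Zfp141 and Zfp931 fell by -2.12 ± 0.45 (-1.15 with probe sets averaged) and -1.98 ± 0.22. Of all 345 genes with a Zfp symbol, a family chosen after its values were seen, 59 fell (17.1%) and 13 rose, with a median of -0.15. The falls numbered 105 without E14.5 replicate 2, 26 without E14.5 replicate 1, 18 without E14.5 replicate 3, 30 without E15.5 replicate 1, and 39 without E15.5 replicate 2 or without replicate 3.

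Among the largest rises outside the secretory lists was Slc26a9, the anion transporter gene, at 9.23, 10.22 and 9.62 and then 11.90, 11.41 and 11.70 (1.98 ± 0.25, adjusted p = 0.000197). Tbxas1, the thromboxane synthase gene, rose by 1.53 ± 0.16 from 6.92 to 7.32 up to 8.41 to 8.95. Neither gene overlapped between the days, which the naming rule required. Vaultrc5, a small vault RNA gene, rose by 2.41 ± 0.49 and Snord118, a small nucleolar RNA gene, by 1.52 ± 0.50. The Snord118 call was lost without E14.5 replicate 1 (adjusted p = 0.0975) or replicate 3 (0.123) and without E15.5 replicate 1 (0.154) or replicate 2 (0.051). Of 50 small nucleolar RNA genes, also chosen after their values were seen, 12 rose and 3 fell, with 2 rises without E15.5 replicate 1, 3 without E14.5 replicate 3 and 4 without E14.5 replicate 1.

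The same day in FVF- cells served as the comparison for what changed in the sorted epithelium. There 355 genes rose (1.84%) and 898 fell (4.65%), and the interaction of sort and step called 676 genes (3.5%). The enzyme genes also rose in FVF-, where 8 of 15 proteases and 7 of 22 other products rose. Cpb1 read 7.10, 6.86 and 7.01 and then 7.91, 8.37 and 9.84 there (1.72 ± 0.32), and the FVF+ step exceeded this by 0.48 ± 0.45, which the interaction did not call (adjusted p = 0.576). For Cela3b the FVF- step was 1.75 ± 0.29 and for Rnase1 1.84 ± 0.36, with interactions of 0.42 ± 0.40 (adjusted p = 0.585) and 0.86 ± 0.52 (adjusted p = 0.353). Every one of these FVF- readings was below every FVF+ reading of its own day. Clps, whose FVF+ signal near the upper end of the values may not show a difference, rose by 1.62 ± 0.28 in FVF-, and the interaction was -1.65 ± 0.39 (adjusted p = 0.0294).

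ER genes as a list did not share this rise in FVF-. There 0 of the 49 rose and 1 fell (7 and 10 at an unadjusted p). Those counts are near the shares of all genes in FVF-, 1.84% risen and 4.65% fallen. The interaction was called for 7 of the 49, against 3.5% of all genes, each with the larger step in FVF+. Herpud1 read 11.74 to 11.92 and then 11.78 to 11.87 in FVF- (-0.01 ± 0.15), with an interaction of 0.79 ± 0.21 close to the threshold (adjusted p = 0.0495). Eif2ak3 and Sel1l had interactions of 0.74 (adjusted p = 0.00663) and 0.70 (adjusted p = 0.00933). For Pdia2 the FVF- step was 1.10 ± 0.34 and the interaction of 1.21 ± 0.48 was not called (adjusted p = 0.162). Neurod1, Gast and Tac1 also fell relative to FVF-, by interactions of -1.53 ± 0.37, -1.47 ± 0.38 and -1.16. The FVF- levels of Neurod1 and Gast were below all FVF+ levels on both days, while Tac1 in FVF- read 5.39 to 5.77, level with FVF+ at E15.5. For Sst the interaction was 0.91 ± 0.34 and was not called (adjusted p = 0.135).

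**Figure D5:**
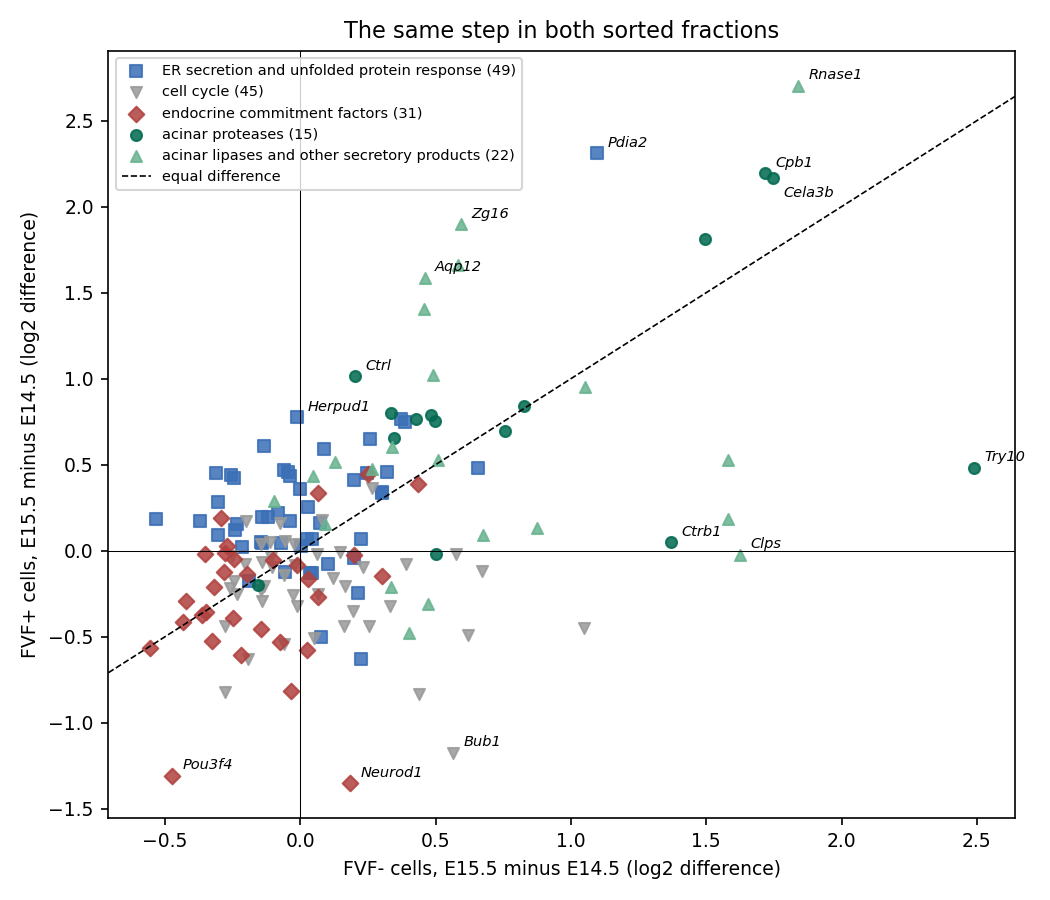
Log2 difference of E15.5 minus E14.5 in FVF- cells (horizontal) and FVF+ cells (vertical) for the measured members of 5 gene lists, 1 point a gene, with the number of members in brackets and a dashed line where both differences are equal. Rnase1, Cpb1 and Cela3b rose in both sorts, at 1.84 and 2.70, 1.72 and 2.19, and 1.75 and 2.17, while Herpud1 lies at -0.01 and 0.78 and Neurod1 at 0.18 and -1.35.

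Markers of other cell types were followed in the same arrays. Of 31 mesenchymal genes 3 rose and 1 fell, and of 12 smooth muscle genes 0 did either (3 rose and 0 fell at an unadjusted p). Of 25 macrophage and leukocyte genes 4 rose, a share close to the 14.7% of all genes, and 0 fell (0 also at an unadjusted p). The largest rise was that of the complement gene C1qa (0.95 ± 0.25, adjusted p = 0.0114), whose call was lost without E14.5 replicate 1 (adjusted p = 0.0554) or replicate 3 (adjusted p = 0.0574). Of 8 mesothelial genes 1 rose and 0 fell (0 also at an unadjusted p). The mean macrophage list level was 7.58 to 7.73 at E14.5 and 7.85 to 8.03 at E15.5, against 9.98 to 10.43 in FVF-. No rise among the mesenchymal and macrophage genes held throughout. Without E14.5 replicate 1, E14.5 replicate 3 or E15.5 replicate 3, 1 macrophage gene rose. Of 20 endothelial genes 0 rose (2 at an unadjusted p) and 1 fell: Emcn, a sialomucin gene of venous endothelium, read 8.63, 9.78 and 9.11 and then 7.14, 8.23 and 7.10 (-1.68 ± 0.41, adjusted p = 0.00798). The mean endothelial level was 8.31 to 9.04 at E14.5 and 8.13 to 8.54 at E15.5, against 10.2 to 11.09 in FVF-. Of 13 red blood cell genes 3 rose and 2 fell, at mean levels of 7.77 to 7.85 and then 7.95 to 8.02. Of 18 neural crest, glial and neuronal genes 2 rose and 2 fell. Fabp7, a fatty acid binding protein gene of glial progenitors, fell by -1.56 ± 0.36 from 8.47 to 8.84 down to 7.06 to 7.20, while Sox10, the defining factor of neural crest glia, differed by -0.06. The part of these other cells in the changes above was not tested.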

How the data were processed

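Total RNA of sorted cells was amplified, labelled with biotin and hybridised to Affymetrix whole-transcript arrays, per the labels' protocols. Per the submitters' processing notes, the authors made the deposited log2 values by RMA with affy 1.44.0. Whether probe sets were filtered: not given in the sources used here. Scanner files were not used here, so precision is judged from how many arrays there are.

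Of 23305 probe sets, 20728 had exactly 1 gene symbol in the platform annotation, 1174 had several and 1403 none. The brightest probe set of each of the 804 genes with more than 1 was kept, which left 19296 genes. A limma 3.58.1 model (R 4.3.3) of 8 group means was fitted to all 21 arrays with 13 residual degrees of freedom and empirical Bayes moderation, two-sided, and Benjamini-Hochberg adjusted over all genes. The fit was tested on simulated data. The comparisons were the FVF+ step, the same step in FVF-, their interaction and, as values only, the FVF+ step from E13.5 to E14.5.

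Members and the 24 gene lists were chosen with earlier results of these data known. Genes named were the 12 largest called rises and 12 largest called falls without overlap between arrays, predicted genes passed over, the 5 largest interactions per direction, Foxa2, and up to 4 called members per direction and 2 uncalled members of each list. Further members and genes outside the lists were named after their values were seen.

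Alternatives were a fit on the compared arrays alone, quantile and cyclic loess normalization, median centring, a filter on dim genes (group mean above 8.77), averaging the probe sets of each gene, robust moderation with a trend on intensity, a weight for each array, the replicate number as a block, a 2-fold threshold and leaving out each array. Centring on olfactory receptor genes was added after seeing the data. The dim filter and the 2-fold threshold were not among the 15 alternatives that a call held throughout had to pass. Promoter windows are from RefSeq (GRCm38.p6).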

Additional observations from a re-analysis of the deposited data

Results flagged for a closer look

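The change from E14.5 to E15.5 differed between FVF+ and FVF- cells, by the limma interaction of sort and step at an adjusted p under 0.05, for 36 of the 156 genes named by rule. Many of these were named for a large FVF+ difference or a large interaction, so their share was raised by the choice. Over all 19296 genes the interaction called 676 (3.5%). Groups held 3 arrays at most, so single outlying arrays were not tested for.

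The interaction was negative, with the FVF+ step below the FVF- step, for 24 of them. The largest was that of Hmgn5, a nucleosome-binding protein gene, at -3.60 ± 0.81 (adjusted p = 0.0239), where FVF+ differed by -1.93 and FVF- by 1.67. The zinc finger genes Zfp141, Zfp985 and Zfp931 had interactions of -2.89, -2.62 and -2.46. Those of Scoc, Ly96, Zcrb1, Mindy2 and Stxbp4 were -2.84, -2.66, -2.21, -2.09 and -2.07, and those of Trim13 and Prxl2a -1.41 and -1.34. Crp had -1.62 ± 0.18 (adjusted p = 0.0013), with an FVF- difference of -0.08.

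Among lineage genes, Neurod1 had -1.53, Gast -1.47 and Tac1 -1.16. The digestive genes Clps and Pla2g1b had -1.65 and -0.88, and for Clps the FVF+ difference was -0.02 and the FVF- difference 1.62. The FVF+ signal of Clps lay near the upper end of the deposited values, where whether a difference could still show was not tested, so its interaction is no measure of unequal steps. The mitotic genes Bub1 and Kif11 had -1.74 and -1.27. The endothelial gene Emcn had -2.24 and the glial gene Fabp7 -2.11. Dnaja1 had -1.05, Hey1 -0.90 and the intermediate filament gene Vim -0.45.

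The interaction was positive for 12. Tbxas1 had 1.67 ± 0.23 (adjusted p = 0.00262) and Slc26a9 1.60 ± 0.35 (adjusted p = 0.0212). The homeobox genes Hoxb5 and Dlx2 had 1.18 and 1.17, with FVF+ differences of 0.51 and 0.66 and FVF- differences of -0.67 and -0.51. Pcx, the pyruvate carboxylase gene, had 1.15, the heme synthesis gene Alas2 1.14 and Aqp12 1.13. The granule genes Slc30a8 and Sytl4 had 1.05 and 0.93, Ctrl had 0.81, Herpud1 0.79 and the Notch modifier gene Rfng 0.69. With probe sets averaged, the FVF+ differences of Scoc and Zfp141 were -1.10 and -1.15. All of these were tested on 3 arrays a group. Without FVF+ E14.5 replicate 2, which stood apart, 36 of the 36 kept their call, and leaving out 1 other array at a time left 15 (without FVF+ E14.5 replicate 3) to 33. On the 12 compared arrays alone 21 kept it, as did 21 with a replicate block within day, and 0 changed sign in any alternative.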

How the results depend on the processing

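The FVF+ step called 4931 genes. It called 2936 on the 6 compared arrays alone, 2889 after quantile and 2721 after cyclic loess normalization, 2491 with the dim filter, 7880 with array weights and 170 at 2-fold or more. Leaving out each array in turn gave 2222 (without E14.5 replicate 3) to 5687 (without E14.5 replicate 2). The count was also lower by more than 1.5 times without E14.5 replicate 1 (2768), E15.5 replicate 1 (3075) and E15.5 replicate 3 (2975). Of the calls, 57.7% were higher, against 45% after cyclic loess normalization, 29.6% with the dim filter and 14.9% with centring on olfactory receptor genes. That centring moved the median of all genes from 0.06 to -0.10. No gene called both here and in an alternative changed direction.

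The FVF- step called 1253 genes, 1 on its own 6 arrays, 625 after cyclic loess normalization, and 298 (without E15.5 replicate 1) to 1069 with an array left out, among them 669 without E14.5 replicate 3 and 710 without E15.5 replicate 3. The interaction called 676 genes, 277 on 12 arrays, 2169 with array weights, 284 with the replicate block within day, and 163 to 2018 with an array left out, the extremes being without FVF+ E14.5 replicate 3 and without replicate 2. It called 205 without FVF+ E14.5 replicate 1, 241 without FVF+ E15.5 replicate 1, and 394 and 230 without FVF- E15.5 replicates 2 and 3. The cause of these movements was not tested.

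Whether replicate numbers pair the samples is not stated, and residual correlations from 3 arrays a group cannot decide it. Array codes of same-numbered FVF- and FVF+ arrays are adjacent. At E14.5 they are 9, 11 and 13 beside 10, 12 and 14. At E15.5 they are 15, 17 and 19 beside 16, 18 and 20. Residuals of same-numbered FVF+ arrays of E14.5 and E15.5 correlated at -0.01, 0.30 and 0.23. Those of FVF+ with FVF- correlated at -0.37, -0.22 and 0.49 at E14.5 and at 0.20, 0.14 and 0.08 at E15.5. FVF+ E14.5 replicate 2 and FVF- E14.5 replicate 1, which differ in number, correlated at 0.58. The replicate block gave 5031 calls for the FVF+ step, 1248 for the FVF- step and 787 for the interaction.

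Of 108 named genes called in the FVF+ step, 73 to 101 kept their call when 1 array was left out, 79 after cyclic loess normalization and 82 with centring on olfactory receptor genes, and 0 reversed.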

Other observations

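Outside the lists, further genes of the secretory pathway rose between E14.5 and E15.5 and held their call throughout (the genes in this section were chosen after their values were seen). Fkbp11, a prolyl isomerase gene of secretory cells, read 8.98, 9.57 and 8.95 and then 10.50, 9.85 and 10.47 (1.11 ± 0.16). Agr2, a disulfide isomerase gene of mucous and exocrine cells, rose by 0.88 ± 0.13, Derl3, a gene of ER-associated degradation, by 0.78 ± 0.18, and Spdef, a transcription factor gene of secretory epithelia, by 0.76 ± 0.12. Chrm3, the gene of the muscarinic receptor through which nerves stimulate enzyme release, rose by 0.67 ± 0.15 from at most 9.29 at E14.5 to at least 9.62 at E15.5. Its FVF- step was -0.18 and the interaction was called (limma adjusted p = 0.0352).

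Insig1, a sterol-responsive gene that restrains cholesterol synthesis, rose by 1.20 ± 0.18 from 10.91 to 11.02 up to 11.88 to 12.42, while the sterol synthesis genes Hmgcs1 and Sqle differed by -0.14 ± 0.14 and -0.16 ± 0.08 and were not called. The oxygen-responsive genes Egln3, Car9 and Ddit4 rose by 0.85 ± 0.19, 0.78 ± 0.17 and 0.81 ± 0.14, while Slc2a1, Pgk1 and Vegfa, which also respond to low oxygen, differed by -0.01, -0.02 and 0.24 and were not called. Among endocrine genes outside the lists, Nhlh1, a helix-loop-helix factor gene, read 10.01, 10.12 and 9.72 and then 8.16, 8.93 and 8.65 (-1.37 ± 0.26), and the calcium sensor gene Kcnip3 fell by -1.33 ± 0.22 from 9.76 to 10.27 down to 8.41 to 9.06. Cd93, an endothelial receptor gene, fell by -1.44 ± 0.34, like Emcn. Igfbp5 and Hhip, which encode a binding protein of insulin-like growth factors and an inhibitor of hedgehog signalling, fell by -0.92 ± 0.14 and -1.01 ± 0.23.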
